A study of Mus musculus with 19 samples.

Results

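Glycolysis, glycogen and lactate transport were described through 36 genes in ribosome-bound messenger RNA of mouse cortical astrocytes. The genes were picked by symbol: 20 for glycolysis and its control, 4 for transport of glucose and lactate, 3 pyruvate dehydrogenase kinases and 9 for glycogen. All 36 were found among the 21749 genes of the deposited table, and all 36 had enough signal to be tested. The mice, of B6;FVB background, carried the transgene Tg(Aldh1l1-EGFP/Rpl10a)JD130Htz, which places a fluorescent tag on a ribosomal protein under the control of Aldh1l1, a gene of astrocytes. Tagged ribosomes were pulled down (translating ribosome affinity purification, TRAP) and their polyadenylated RNA was sequenced. Because the Aldh1l1 sequence decides which cells are tagged, the values cover whichever brain cells use it. The 19 libraries came from males (4), and from females collected at 9 in the morning in metestrus (8), proestrus (3) or estrus (4). All of them carried the transgene, and ages, the collection hour of the males and a match of libraries to single animals are not stated in the labels. P-values therefore measure the spread between libraries, which may be technical.

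Astrocytes take up glucose from the blood through carriers of the Slc2a family and break it down to pyruvate by glycolysis. They can turn pyruvate into lactate with lactate dehydrogenase and pass it out through monocarboxylate transporters of the Slc16a family. Astrocytes also hold most of the glycogen of the brain, and targeting subunits of protein phosphatase 1 bring this phosphatase to glycogen, where it switches glycogen synthase on and glycogen phosphorylase off.

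The values were log2 expression values as deposited, for which read depth and scaling are unknown. Taken back from the log scale they summed to 19800000 in Estrus replicate 4, the lowest library, and 25600000 in Male replicate 1, the highest. The labels name 3 batches. The 3 stages were present in batch 2 (2 metestrus, 2 proestrus, 3 estrus) and in batch 3 (1 each), whereas batch 4 consisted of 4 males with 5 metestrus females. Batch was a term of the fit, so the stage differences rest on batches 2 and 3 and the male difference on batch 4. The deposited values lack 4 directions of variation between libraries that do not touch the group means, which makes the spread within groups look smaller than it was. The 12 astrocyte markers, Aldh1l1, Slc1a2 and Aqp4 among them, all had values above the minimum, as did the 12 neuron markers. The summed astrocyte markers reached 17.94 to 18.21 in males, 17.64 to 18.11 in metestrus, 17.69 to 17.83 in proestrus and 17.37 to 17.93 in estrus, on the log2 scale. Neuron markers summed to 16.58 to 16.90 in males, 16.46 to 16.76 in metestrus, 16.52 to 16.67 in proestrus and 16.45 to 17.26 in estrus. The 4 Y-linked genes looked at reached at least 5.94 in every male library and at most 4.03 in any female library. Xist, which is made from the inactive X chromosome, had values of 0.04 to 5.11 in males, 7.77 to 9.82 in metestrus, 6.97 to 8.96 in proestrus and 4.51 to 7.55 in estrus, so that its estrus values lay below all those of metestrus and Estrus replicate 2 lay below Male replicate 1. RNA of other cells was present in the pulldowns, and fewer cells of a type and less RNA per cell cannot be told apart in such libraries.

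Glycolytic genes are textbook targets of hypoxia-inducible factors, and the promoter windows of 3 genes are shown with the letters that were searched, for glycogen (Ppp1r3c), glycolysis (Pgam1) and glucose uptake (Slc2a1). Each window runs from 250 bases before the start of the RNA to 50 bases after it, 5′ to 3′ on the gene's own strand, from RefSeq on GRCm38.p6, a different build from the GRCm39 that the submitters' processing notes name. Capitals mark ACGTG, the core that hypoxia-inducible factors bind, and the same core on the other strand (CACGT). Ppp1r3c lies at chr19:36736555-36736854 on the minus strand, Pgam1 at chr19:41911621-41911920 on the plus strand and Slc2a1 at chr4:119108495-119108794 on the plus strand.
Ppp1r3c: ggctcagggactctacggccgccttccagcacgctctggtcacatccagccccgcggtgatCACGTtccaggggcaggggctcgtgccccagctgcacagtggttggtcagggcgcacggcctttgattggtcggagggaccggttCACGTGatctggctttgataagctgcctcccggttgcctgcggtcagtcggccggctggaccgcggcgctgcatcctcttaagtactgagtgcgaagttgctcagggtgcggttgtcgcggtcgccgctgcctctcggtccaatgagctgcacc
Pgam1: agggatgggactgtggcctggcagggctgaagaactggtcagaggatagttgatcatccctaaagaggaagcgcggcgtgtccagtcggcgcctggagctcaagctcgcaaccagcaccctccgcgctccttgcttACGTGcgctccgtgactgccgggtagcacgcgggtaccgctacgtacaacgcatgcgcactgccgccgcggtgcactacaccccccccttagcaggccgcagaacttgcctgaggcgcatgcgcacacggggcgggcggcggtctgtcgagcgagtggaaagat
Slc2a1: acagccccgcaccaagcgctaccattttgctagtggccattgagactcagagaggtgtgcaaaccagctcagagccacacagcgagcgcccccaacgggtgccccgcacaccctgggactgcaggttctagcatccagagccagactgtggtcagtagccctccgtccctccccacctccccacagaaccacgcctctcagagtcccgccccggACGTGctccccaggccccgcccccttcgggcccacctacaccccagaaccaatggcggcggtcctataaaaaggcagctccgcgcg
The Ppp1r3c window held 3 matches, counting both strands, since its second site reads CACGTG and matches on either strand, and those of Pgam1 and Slc2a1 held 1 each.

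The RefSeq table had windows for 33 of the 36 genes, with 50 windows in all, and Ppp1r3b, Slc16a7 and Slc2a3 had no entry. ACGTG on either strand stood in 25 of the 50 windows (50%), against 19.6% of 32851 windows of all genes, and in at least 1 window of 21 genes. GCGTG, the other form of this core, stood in 27 windows (54%), against 32.4% of all. The E-box CACGTG, which always contains ACGTG, stood in 7 windows (14%), against 7.15% of all. GGTCA, the core of an estrogen response element, stood in 27 windows (54%), against 40.5% of all. The full element GGTCANNNTGACC stood in 0 of the 50 windows, against 0.07% of all. Genes with several windows were counted more than once, and the windows of all genes were not matched for base content. Matches of such short motifs describe letters of the reference and show no binding.

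Across the 4 groups, 0 of the 20 glycolysis genes passed the test in any comparison, and 1 gene of glycogen control stood apart. Ppp1r3b, the glycogen-targeting subunit of protein phosphatase 1 best known from liver, had log2 values of 6.41 to 7.48 in estrus, against 1.25 to 3.61 in metestrus. It was the only one of the 36 genes to pass an adjusted p of 0.05 in any of 4 comparisons, tested with limma over 20644 genes (0.031 in estrus against metestrus). The call was lost with the missing directions counted (0.112), within the batches that hold both stages (0.116), with a stricter filter on low values (0.22) and when any of 4 libraries was left out (0.0505 to 0.163). Only 1 of 8 metestrus libraries and 0 of 4 male libraries reached the minimum for testing of 3.32, so the gene entered the test through the stages in which it was high and the size of the difference is uncertain. The map of the 36 genes by library shows the glycolytic genes moving together within single libraries and Ppp1r3b set apart by group.

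**Figure D1:**
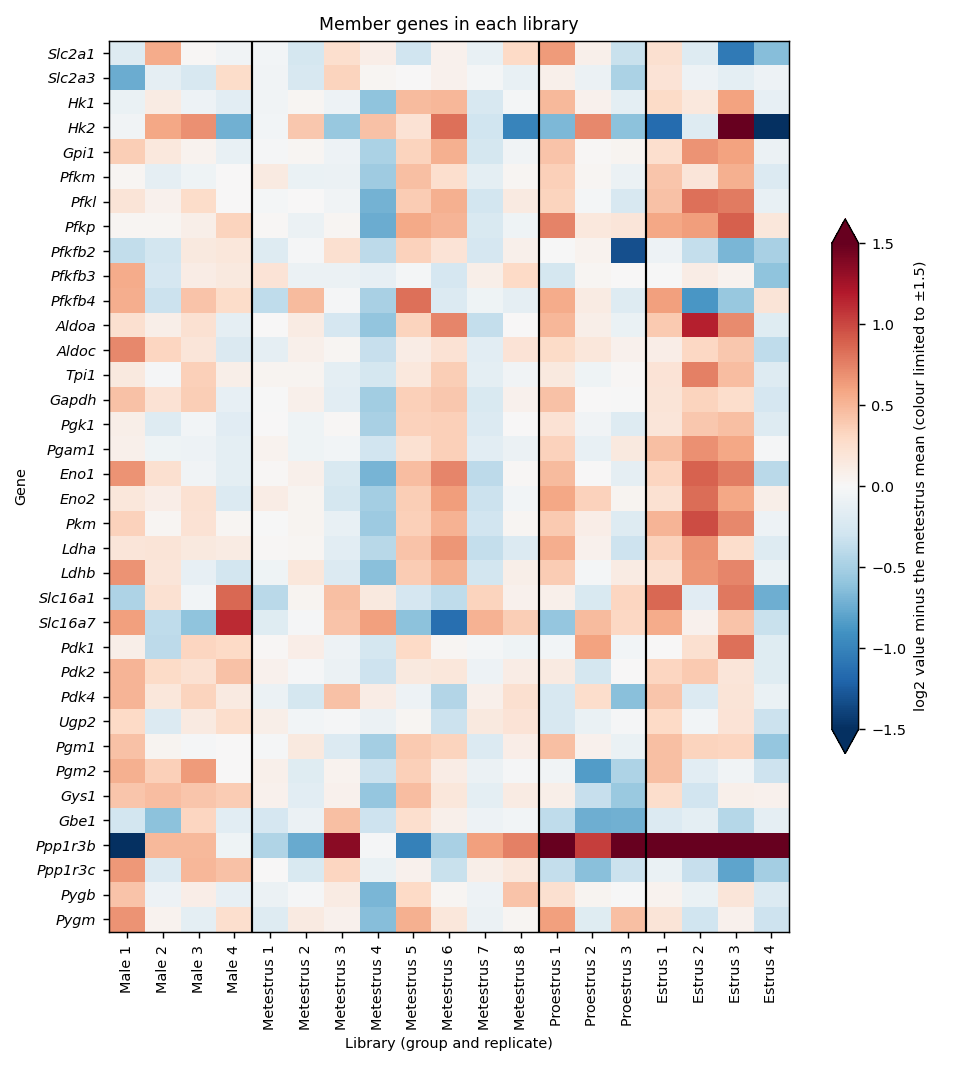
Each row is a gene and each column a library, ordered as males, metestrus, proestrus and estrus; the colour gives the log2 value minus the metestrus mean of that gene, limited to ±1.5. Ppp1r3b is dark red in every estrus library, and Metestrus replicates 5 and 6 and Estrus replicates 2 and 3 are red through most glycolytic genes, whereas Metestrus replicate 4 is blue.

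In estrus against metestrus, 1 of the 36 genes passed (Ppp1r3b, higher), where 0.0872% of all genes tested did. In proestrus against metestrus 0 of 36 passed, where 0.988% of all genes did, and in estrus against proestrus 0 of 36 passed, where 0.94% did. In males against metestrus 0 of 36 passed, where 0.0242% of all genes did. A test for any difference across the 3 stages called Ppp1r3b alone of the 36 (adjusted p = 0.012), where 1.23% of all genes were called. With the missing directions counted this call was lost (0.0509) and 57 of all genes were called in place of 254, and with the stricter filter it was lost as well (0.09). At an unadjusted p under 0.05, limma counted 3 of 36 genes in proestrus against metestrus (8.33%, against 13.1% of all genes) and 6 of 36 in estrus against metestrus (16.7%, against 11.3%). It counted 1 of 36 in estrus against proestrus (2.78%, against 14.5%) and 3 of 36 in males against metestrus (8.33%, against 5.33%). The stages share the metestrus libraries as their baseline, so these comparisons are not independent of each other.

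Fold changes were small for most of the genes and mostly of 1 sign. The glycolytic genes moved together within single libraries, so the signs counted here are not independent of each other. The fold change was above 0 for 24 of 36 genes in proestrus against metestrus, for 25 in estrus against metestrus and for 26 in estrus against proestrus. It was above 0 for 28 of 36 in males against metestrus. Over all genes tested, the share above 0 was 41.9% in proestrus against metestrus, 43.5% in estrus against metestrus, 52% in estrus against proestrus and 55.3% in males against metestrus. The median log2 fold change of the 36 genes was 0.12 in proestrus against metestrus, beside -0.09 for all genes, and 0.14 in estrus against metestrus, beside -0.07. It was 0.13 in estrus against proestrus, beside 0.02, and 0.12 in males against metestrus, beside 0.04. Centring each library on its median left these 4 medians of the 36 genes above 0.

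How far the data could bound a change differed between genes. The 95% interval lay within a 2-fold change either way for 30 of 36 genes in proestrus against metestrus, 30 in estrus against metestrus, 31 in estrus against proestrus and 33 in males against metestrus. Hk2, Slc16a7 and Ppp1r3b fell outside this bound in all 4 comparisons, and their spread between libraries was the widest of the 36 genes. The residual SD was 1.02 for Ppp1r3b, 0.93 for Hk2 and 0.72 for Slc16a7, and it was lowest for Pdk2, at 0.20. For the genes inside the bound, a change of 2-fold or more was not covered by the interval, while smaller changes were.

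**Figure D2:**
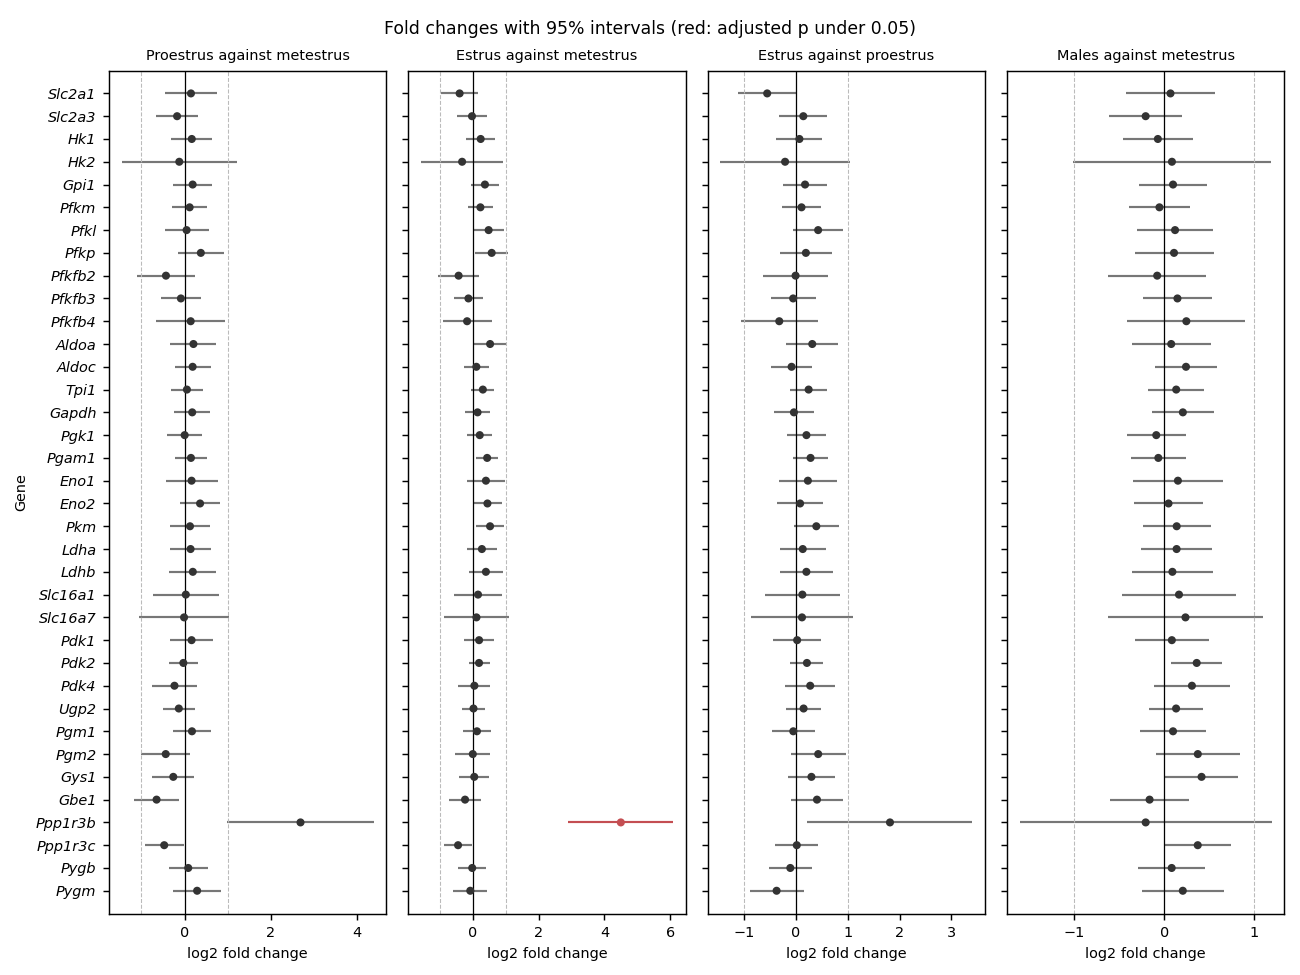
Points give the log2 fold change of each gene and lines its 95% interval in 4 comparisons, with dashed lines at a 2-fold change either way and red marking an adjusted p under 0.05. Ppp1r3b in estrus against metestrus, at 4.50 (2.90 to 6.09), is the 1 red point, and most other intervals cross 0 and stay inside the dashed lines. Most metestrus values of Ppp1r3b lay below the minimum for testing, so the size of its difference is uncertain.

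Glucose enters astrocytes and the vessel wall through Slc2a1 (GLUT1), and neurons use Slc2a3 (GLUT3). Slc2a1 had log2 values of 10.13, 9.69, 8.83 and 9.25 in estrus, against 10.53, 9.97 and 9.55 in proestrus. The estrus values spread over more than 1 log2 unit and overlapped those of proestrus. The fold change was -0.56 ± 0.27 in estrus against proestrus (SE, limma adjusted p = 0.351) and -0.41 ± 0.27 in estrus against metestrus (SE, adjusted p = 0.582). Within batches, Slc2a1 in estrus against metestrus differed by -0.18 in batch 2 and by -0.90 in batch 3. Endothelial cells also use Slc2a1. Of their markers, 0 of 6 had a fold change above 0 in estrus against metestrus (median -0.87, 0 past the threshold). Their sum was 7.44 to 8.98 in estrus and 8.37 to 9.48 in metestrus on the log2 scale. In the library order of the Slc2a1 values above, the estrus sums were 7.44, 7.64, 7.94 and 8.98. All estrus values of the endothelial marker Tek, and some of Kdr and Pecam1, lay below the minimum for testing, so the marker median is uncertain. In batch 2 the estrus sums lay below the metestrus sums of 9.07 and 8.80. In batch 3 the estrus sum of 8.98 lay above the metestrus sum of 8.80. The part of these cells in the Slc2a1 values was not tested. Slc2a3 averaged 8.92 ± 0.42 in males (SD, n = 4), 9.13 ± 0.16 in metestrus (SD, n = 8), 8.97 ± 0.28 in proestrus (SD, n = 3) and 9.11 ± 0.16 in estrus (SD, n = 4), all within the spread of the libraries.

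Hexokinases trap glucose in the cell as glucose 6-phosphate. Hk1, the main form of brain, averaged 11.92 ± 0.12 in males, 11.98 ± 0.36 in metestrus, 12.11 ± 0.32 in proestrus and 12.20 ± 0.31 in estrus (SD, n = 4, 8, 3 and 4). Hk2, the insulin- and hypoxia-responsive form, had values of 4.71, 5.67, 7.64 and 4.18 in estrus, against a range of 4.87 to 6.68 with a median of 5.95 in metestrus. Estrus replicate 3 alone carried the high end and Estrus replicate 4 the low end of Hk2, so the mean of 5.55 ± 1.52 (SD, n = 4) describes neither. The fold change of Hk2 in estrus against metestrus was -0.34 with a 95% interval of -1.59 to 0.92. Gpi1, which turns glucose 6-phosphate into fructose 6-phosphate, differed by 0.36 ± 0.20 in estrus against metestrus (SE, limma adjusted p = 0.515).

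Phosphofructokinase commits sugar to glycolysis and has 3 subunits, of muscle type (Pfkm), liver type (Pfkl) and platelet type (Pfkp). Pfkp had values of 12.19, 12.23, 12.51 and 11.78 in estrus, against 10.87 to 12.18 with a median of 11.58 in metestrus. In estrus, 3 of the 4 libraries stood above the highest metestrus library, and Estrus replicate 4 stood within the metestrus range. Proestrus libraries held 12.35, 11.76 and 11.79 and males 11.64, 11.63, 11.70 and 11.94, inside or just above the metestrus range. The Pfkp fold change in estrus against metestrus was 0.57 ± 0.24 (SE), with an unadjusted p of 0.0283 and a limma adjusted p of 0.385. It was 0.74 within batch 2 and 0.14 within batch 3. Pfkl differed by 0.47 ± 0.23 and Pfkm by 0.22 ± 0.18 in the same comparison (SE, adjusted p = 0.445 and 0.681 with limma). The Pfkfb enzymes make and remove fructose 2,6-bisphosphate, the signal that speeds phosphofructokinase. Pfkfb3, the form with the strongest kinase activity, had fold changes of -0.09 ± 0.22 in proestrus, -0.14 ± 0.21 in estrus and 0.15 ± 0.18 in males, each against metestrus (SE). Pfkfb2 differed by -0.43 ± 0.32 in proestrus and -0.44 ± 0.30 in estrus against metestrus (SE), and Pfkfb4 by 0.14 ± 0.38 and -0.18 ± 0.36 (SE). All 3 Pfkfb genes overlapped between groups.

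The middle and end of glycolysis runs through aldolase, which splits the sugar, to pyruvate kinase, which makes pyruvate. Aldoc, the aldolase of astrocytes, had values of 17.89, 17.50, 17.35 and 16.96 in males, 16.83 to 17.39 with a median of 17.22 in metestrus, 17.46, 17.34 and 17.24 in proestrus and 17.27, 17.48, 17.58 and 16.80 in estrus. Aldoc thus overlapped in all 4 groups, with Male replicate 1 the highest library and Estrus replicate 4 the lowest. Aldoa, the aldolase of muscle and of most other cells, had values of 16.09, 16.86, 16.41 and 15.52 in estrus, against 15.11 to 16.43 with a median of 15.70 in metestrus. Its fold change was 0.52 ± 0.24 (SE, unadjusted p = 0.0436, limma adjusted p = 0.427), at 0.69 within batch 2 and 0.07 within batch 3. For Aldoc the fold change in the same comparison was 0.10 ± 0.19 (SE, adjusted p = 0.879 with limma).

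Pgam1, phosphoglycerate mutase, had values of 14.48, 14.34, 14.33 and 14.27 in males and of 14.12 to 14.77 with a median of 14.35 in metestrus. It had 14.76, 14.30 and 14.55 in proestrus and 14.86, 15.10, 14.99 and 14.39 in estrus. The 3 estrus libraries of batch 2 stood above every metestrus library, while Estrus replicate 4, of batch 3, stood inside the metestrus range. The fold change in estrus against metestrus was 0.43 ± 0.17 (SE, unadjusted p = 0.0176, limma adjusted p = 0.335). It was 0.58 within batch 2 and 0.03 within batch 3. Pkm, pyruvate kinase of muscle and brain, had values of 15.01, 14.70, 14.88 and 14.70 in males and of 14.12 to 15.19 with a median of 14.68 in metestrus. It had 15.06, 14.77 and 14.48 in proestrus and 15.18, 15.65, 15.39 and 14.59 in estrus, where 2 of the 4 libraries stood above every metestrus library. The Pkm fold change in estrus against metestrus was 0.52 ± 0.21 (SE, unadjusted p = 0.0209, limma adjusted p = 0.355), at 0.72 within batch 2 and 0.03 within batch 3. The difference of both genes was thus found in batch 2 and was near 0 in batch 3, which holds 1 library a stage. The remaining enzymes of this stretch (Tpi1, Gapdh, Pgk1, Eno1 and Eno2) had fold changes of 0.13 to 0.44 in estrus against metestrus and of 0.00 to 0.36 in proestrus against metestrus, with 0 of 5 under an unadjusted p of 0.05 in either. Gapdh, often used as a constant reference gene, averaged 16.18 ± 0.25 in males, 15.96 ± 0.30 in metestrus, 16.10 ± 0.25 in proestrus and 16.09 ± 0.26 in estrus (SD, n = 4, 8, 3 and 4). Aldoa, Gapdh, Pgk1, Pgam1, Eno1 and Ldha have processed copies elsewhere in the genome, and the way the authors' counting shared reads among them is unknown here.

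Single libraries moved the glycolytic enzymes as a block. The mean deviation of the 17 enzymes of glycolysis and lactate dehydrogenase from their metestrus means was 0.25, 0.11, 0.14 and -0.11 in males, and in metestrus it ran from -0.46 in replicate 4 to 0.51 in replicate 6. It was 0.35, 0.09 and -0.08 in proestrus and 0.23, 0.59, 0.66 and -0.23 in estrus. Metestrus libraries alone therefore spanned a range about as wide as the estrus ones. All 17 enzymes stood above their metestrus mean in Metestrus replicates 5 and 6 and in Estrus replicate 3, while 0 of 17 did in Metestrus replicate 7, 1 in Metestrus replicate 4 and 2 in Estrus replicate 4. The group means were 0.10 ± 0.15 in males, 0.12 ± 0.22 in proestrus and 0.31 ± 0.41 in estrus (SD, n = 4, 3 and 4), and the SD was 0.31 in metestrus (n = 8). Neuron markers were at their highest sum, 17.26, in Estrus replicate 2 and at their lowest, 16.45, in Estrus replicate 4. The lowest astrocyte marker sum, 17.37, was also that of Estrus replicate 4. Oligodendrocyte markers had fold changes above 0 in estrus against metestrus for 8 of 8 genes, with a median of 0.31 and 0 past the threshold, and their sum was 14.69 to 15.16 in estrus and 14.42 to 14.64 in metestrus. Their part in the values of the enzymes was not tested.

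**Figure D3:**
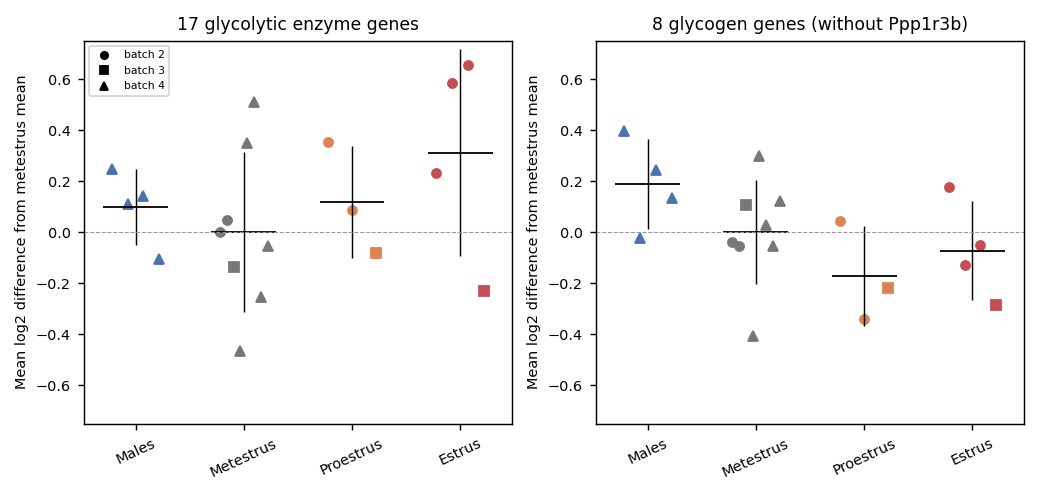
Points are libraries, marked by batch, and give the mean log2 difference from the metestrus mean over the 17 glycolytic enzymes (left) and over 8 glycogen genes, with Ppp1r3b left out (right); lines give group mean and SD. Estrus libraries of batch 2 lie at 0.23 to 0.66 on the left and the estrus library of batch 3 at -0.23, inside a metestrus range of -0.46 to 0.51.

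Lactate dehydrogenase joins A chains (Ldha), which favour making lactate, and B chains (Ldhb), which favour its use. Ldha averaged 13.57 ± 0.03 in males, 13.41 ± 0.38 in metestrus, 13.51 ± 0.43 in proestrus and 13.68 ± 0.36 in estrus (SD, n = 4, 8, 3 and 4). The corresponding means of Ldhb were 15.53 ± 0.42 in males, 15.42 ± 0.38 in metestrus, 15.57 ± 0.21 in proestrus and 15.80 ± 0.39 in estrus. Male libraries lay within 0.1 log2 unit of each other in Ldha, closer than the libraries of the other groups. Slc16a1 (MCT1), a lactate exporter of astrocytes and vessels, had values of 9.72, 8.69, 9.65 and 8.13 in estrus, against 8.46 to 9.31 with a median of 8.92 in metestrus. Estrus libraries lay on both sides of the metestrus range, and the fold change was 0.15 ± 0.35 (SE, limma adjusted p = 0.906). Within batches the Slc16a1 difference was 0.67 in batch 2 and -1.18 in batch 3. Slc16a7 (MCT2), the high-affinity carrier of neurons, averaged 6.75 ± 0.82 in males, 6.56 ± 0.61 in metestrus, 6.63 ± 0.57 in proestrus and 6.74 ± 0.40 in estrus (SD, n = 4, 8, 3 and 4). The 95% interval of Slc16a7 did not exclude a 2-fold difference in any of the 4 comparisons.

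Pyruvate dehydrogenase kinases switch off the enzyme that sends pyruvate into the mitochondrion. Pdk2, the most widely expressed of them, had values of 13.29, 13.07, 13.01 and 13.23 in males, against 12.47 to 12.95 with a median of 12.81 in metestrus. All 4 male libraries stood above all 8 metestrus libraries, and Pdk2 was the only one of the 36 genes whose ranges did not overlap in that comparison, where this held for 1.44% of all genes. The fold change in males against metestrus was 0.36 ± 0.13 (SE, unadjusted p = 0.0139, limma adjusted p = 0.856), and its 95% interval was 0.08 to 0.64. Proestrus libraries had Pdk2 values of 12.91, 12.52 and 12.78, and estrus libraries 13.11, 13.18, 12.97 and 12.60. Of these, 3 estrus libraries stood above the highest metestrus library and the others inside the metestrus range. Pdk4, the kinase induced by fasting, had values of 9.98, 9.65, 9.81 and 9.61 in males, against 9.03 to 9.92 with a median of 9.47 in metestrus, and a fold change of 0.31 ± 0.20 (SE, adjusted p = 0.977 with limma). In proestrus Pdk4 had values of 9.23, 9.73 and 8.85, and in estrus 9.89, 9.27, 9.67 and 9.37. The groups overlapped throughout for Pdk4. Pdk1, which hypoxia induces, differed by 0.16 ± 0.24 in proestrus, 0.18 ± 0.22 in estrus and 0.09 ± 0.20 in males, each against metestrus (SE).

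Glycogen genes held the largest difference of the 36. Ppp1r3b (ENSMUSG00000046794.10) had log2 values of 0.44, 2.75, 2.75 and 2.19 in males and of 1.81, 1.51, 3.61, 2.25, 1.25, 1.78, 2.87 and 3.02 in metestrus. It had 5.48, 3.29 and 6.21 in proestrus and 7.48, 6.42, 6.57 and 6.41 in estrus. All 4 estrus libraries stood above every proestrus, metestrus and male library, and Proestrus replicate 2 alone of the proestrus libraries fell inside the metestrus range. Ppp1r3b was the only one of the 36 genes with no overlap in estrus against metestrus, where this held for 3.33% of all genes, and in estrus against proestrus, where it held for 9.06%.

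The mean of Ppp1r3b was 2.03 ± 1.10 in males (SD, n = 4), 2.26 ± 0.83 in metestrus (SD, n = 8), 4.99 ± 1.52 in proestrus (SD, n = 3) and 6.72 ± 0.51 in estrus (SD, n = 4). Most metestrus values and all male values of Ppp1r3b lay below the minimum for testing. The sizes, intervals and p-values against metestrus that follow, within batches as well, are therefore uncertain. In estrus against metestrus the log2 fold change was 4.50 ± 0.77 (SE), with a 95% interval of 2.90 to 6.09 and a limma adjusted p of 0.031. Across the 3 stages the limma F-test gave an adjusted p of 0.012. When the missing directions between libraries were counted, the adjusted p was 0.112 in estrus against metestrus and 0.0509 across the stages, with the same fold change and an interval of 2.73 to 6.27. In proestrus against metestrus the fold change was 2.68 ± 0.82 (SE, adjusted p = 0.131 with limma), and in estrus against proestrus it was 1.81 ± 0.77 (SE, adjusted p = 0.265 with limma). Male libraries differed from metestrus by -0.20 ± 0.67 (SE, adjusted p = 0.999 with limma), which decides nothing, since most values of both groups lay below the minimum. Within batches, estrus against metestrus differed by 5.17 in batch 2 and 2.79 in batch 3, proestrus against metestrus by 2.73 and 2.60, and estrus against proestrus by 2.44 and 0.20.

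The minimum of 3.32 is the log2 of 10. The adjusted p of Ppp1r3b in estrus against metestrus was above 0.05 when any of 4 libraries was left out, at 0.163 without Metestrus replicate 1, 0.0749 without Metestrus replicate 2, 0.081 without Estrus replicate 2 and 0.0505 without Male replicate 4. The fold change stayed between 4.16 and 5.14 when single libraries were left out. Besides the endothelial and oligodendrocyte values given above, 1 of 5 mural cell markers had a fold change above 0 in estrus against metestrus, with a median of -0.74 and 0 past the threshold. Most estrus values of the mural markers Kcnj8 and Abcc9 lay below the minimum of 3.32, so this median is uncertain. The mural sum was 8.82 to 9.41 in estrus and 9.11 to 9.89 in metestrus. The part of these cells in the Ppp1r3b values was not tested.

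**Figure D4:**
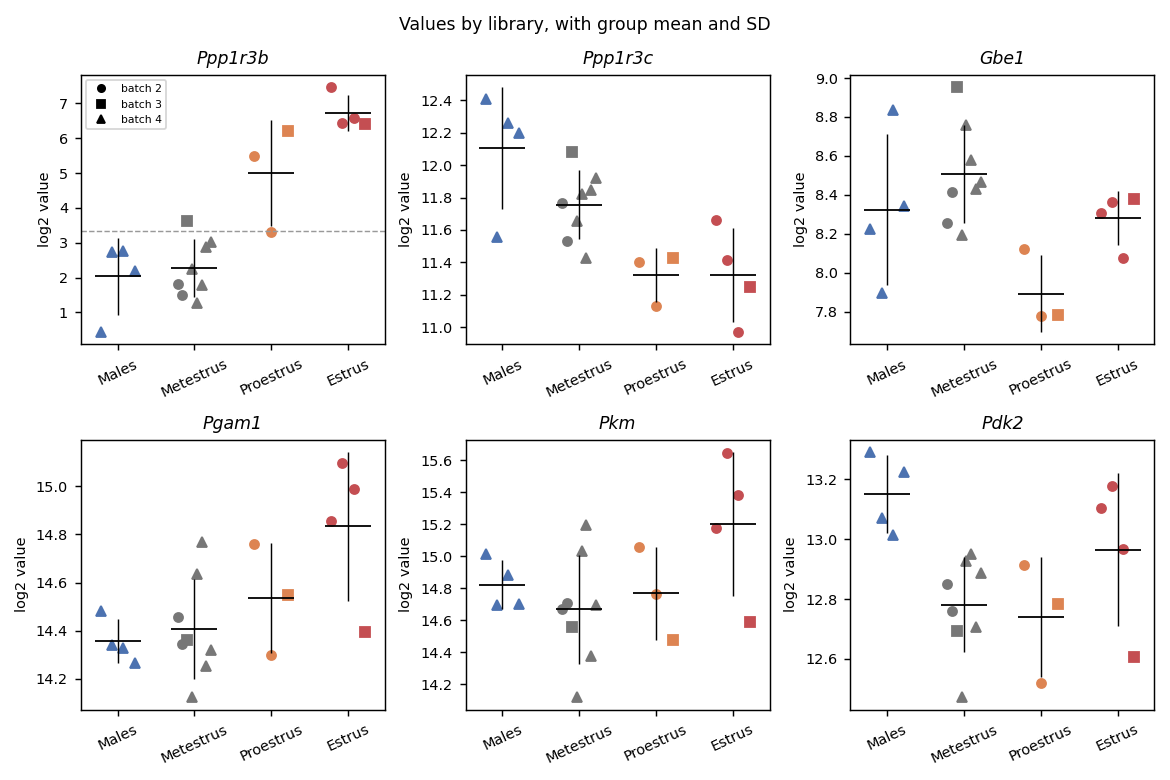
Log2 values of 6 genes in every library, in males, metestrus, proestrus and estrus, with marks by batch and lines for group mean and SD; the dashed line is the minimum of 3.32. Ppp1r3b lies at 6.41 to 7.48 in estrus against 1.25 to 3.61 in metestrus, and Pdk2 at 13.01 to 13.29 in males against 12.47 to 12.95 in metestrus.

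Ppp1r3c, the targeting subunit called PTG, ran the other way. It had values of 12.41, 11.55, 12.26 and 12.20 in males and of 11.42 to 12.08 with a median of 11.79 in metestrus. It had 11.40, 11.13 and 11.43 in proestrus and 11.66, 11.41, 10.97 and 11.25 in estrus. Of the 7 proestrus and estrus libraries, 5 lay below the lowest metestrus library, and 3 of 4 males lay above the highest, so that the groups overlapped at their edges. The Ppp1r3c fold change was -0.47 ± 0.22 in proestrus against metestrus (SE, unadjusted p = 0.0396, limma adjusted p = 0.352) and -0.46 ± 0.20 in estrus against metestrus (SE, unadjusted p = 0.0337, limma adjusted p = 0.401). In males against metestrus it was 0.37 ± 0.18 (SE, unadjusted p = 0.0473, limma adjusted p = 0.927). Within batches, estrus against metestrus differed by -0.30 in batch 2 and -0.84 in batch 3, and proestrus against metestrus by -0.38 and -0.65, the same sign in both. Ppp1r3g, another targeting subunit, from the other glycogen genes, had values near those of Ppp1r3c. It averaged 12.24 in males and 11.56 in metestrus, with a fold change of 0.67 ± 0.24 (SE, limma adjusted p = 0.852).

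Gbe1, the branching enzyme of glycogen, had values of 8.12, 7.78 and 7.78 in proestrus, against 8.19 to 8.96 with a median of 8.45 in metestrus. All 3 proestrus libraries stood below all 8 metestrus libraries. No other gene of the 36 had ranges that did not overlap in proestrus against metestrus, where this held for 8.73% of all genes. The Gbe1 fold change there was -0.65 ± 0.25 (SE, unadjusted p = 0.0183, limma adjusted p = 0.26), a 1.57-fold lower level, with differences of -0.39 in batch 2 and -1.18 in batch 3. In males Gbe1 had values of 8.23, 7.89, 8.83 and 8.34 and in estrus 8.31, 8.36, 8.08 and 8.38, inside or near the metestrus range.

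Gys1, the glycogen synthase of brain and muscle, had values of 9.81, 9.86, 9.80 and 9.77 in males, against 8.81 to 9.86 with a median of 9.45 in metestrus. The male libraries lay within 0.1 log2 unit of each other, at the top of the metestrus range. The Gys1 fold change in males against metestrus was 0.41 ± 0.19 (SE, unadjusted p = 0.043, limma adjusted p = 0.917). In proestrus Gys1 had values of 9.47, 9.04 and 8.83 and in estrus 9.65, 9.11, 9.47 and 9.45, all inside the metestrus range. Pgm2, a phosphoglucomutase whose human form mainly acts on pentose phosphates, had values of 8.53, 8.36, 8.64 and 8.01 in males, 7.68 to 8.37 with a median of 8.02 in metestrus, 7.94, 7.16 and 7.54 in proestrus and 8.46, 7.84, 7.95 and 7.70 in estrus. Its lowest values fell in proestrus, with a fold change of -0.44 ± 0.27 against metestrus (SE, adjusted p = 0.53 with limma). Pgm1, which links glucose 6-phosphate and glucose 1-phosphate, and Ugp2, which makes the UDP-glucose for glycogen, differed by 0.17 ± 0.22 and -0.13 ± 0.18 in proestrus and by 0.12 ± 0.20 and 0.01 ± 0.17 in estrus, each against metestrus (SE). The glycogen phosphorylases Pygb, the brain form, and Pygm, the muscle form that astrocytes also make, differed by 0.08 ± 0.22 and 0.29 ± 0.27 in proestrus and by -0.03 ± 0.20 and -0.09 ± 0.25 in estrus (SE). Of the 9 glycogen genes, 1 passed the threshold in estrus against metestrus and 0 in the other 3 comparisons.

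Related genes were compared within a library as levels per kb of transcript, with transcript lengths of GENCODE on GRCm38. The length was the mean over the main transcripts where these are marked. Otherwise it was the longest transcript, as for Hk1, Aldoa, Pfkfb2, Pfkfb3, Pgm1 and Pfkp. Pfkp was thus divided by 8681 bases and Pfkm by 2831, so much of their ratio comes from these lengths. Before this step their metestrus means were 11.61 for Pfkp and 12.99 for Pfkm. Whether the deposited values were already corrected for length is unknown, so the ratios hold on the assumption that they were not. Aldoc had the highest level per kb of the 36 genes, at 16.01 ± 0.20 in metestrus (SD, n = 8), followed by Gapdh at 15.53 ± 0.30, Aldoa at 15.06 ± 0.41 and Ldhb at 15.03 ± 0.38. With all exons merged, Aldoc stayed at rank 1 and Aldoa at rank 3, while Ldhb took rank 2 and Gapdh rank 4. Ppp1r3b had the lowest level, at 0.15 ± 0.83, below Hk2 at 3.40 ± 0.59 and Slc16a7 at 4.37 ± 0.61. The neighbours Aldoa and Ldhb overlapped within their spread, as did most neighbours in the order.

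In all 19 libraries, Hk1 stood above Hk2 (97.6-fold over all libraries, per kb), Ldhb above Ldha (5.26-fold), Eno1 above Eno2, the neuronal enolase (5.28-fold), and Aldoc above Aldoa (1.85-fold). Pfkm stood above Pfkl (3.55-fold) and above Pfkp (7.23-fold), Pygb above Pygm (4.03-fold), Pgm1 above Pgm2 (13.8-fold) and Pdk2 above Pdk1 (22.5-fold) and Pdk4 (16.1-fold), again in 19 of 19. Slc2a1 stood above Slc2a3 (2.08-fold) and Slc16a1 above Slc16a7 (5.04-fold) in 19 of 19, and Pfkfb3 above Pfkfb4 (1.73-fold) in 18 of 19, or in 16 of 19 with all exons merged. Ppp1r3c stood above Ppp1r3b in 19 of 19 libraries (log2 ratio 5.27 ± 0.38 in estrus and 10.16 ± 0.69 in metestrus, SD, n = 4 and 8), the widest gap of these pairs, with the reserve on the low values of Ppp1r3b given above. But for Pfkfb3 over Pfkfb4, the order within these pairs was thus the same in every library. With all exons merged in place of these transcript lengths, the ratios were 53.0-fold for Hk1 over Hk2, 8.62-fold for Ldhb over Ldha and 3.35-fold for Eno1 over Eno2. They were 5.39-fold for Pfkm over Pfkl, 9.46-fold for Pfkm over Pfkp, 3.54-fold for Slc2a1 over Slc2a3 and 13.1-fold for Slc16a1 over Slc16a7. The log2 ratio of Aldoc over Aldoa per kb was 0.87 to 1.42 in males, 0.43 to 1.22 in metestrus, 0.74 to 1.10 in proestrus and 0.09 to 0.75 in estrus. Its estrus values overlapped those of metestrus and just overlapped those of proestrus.

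**Figure D5:**
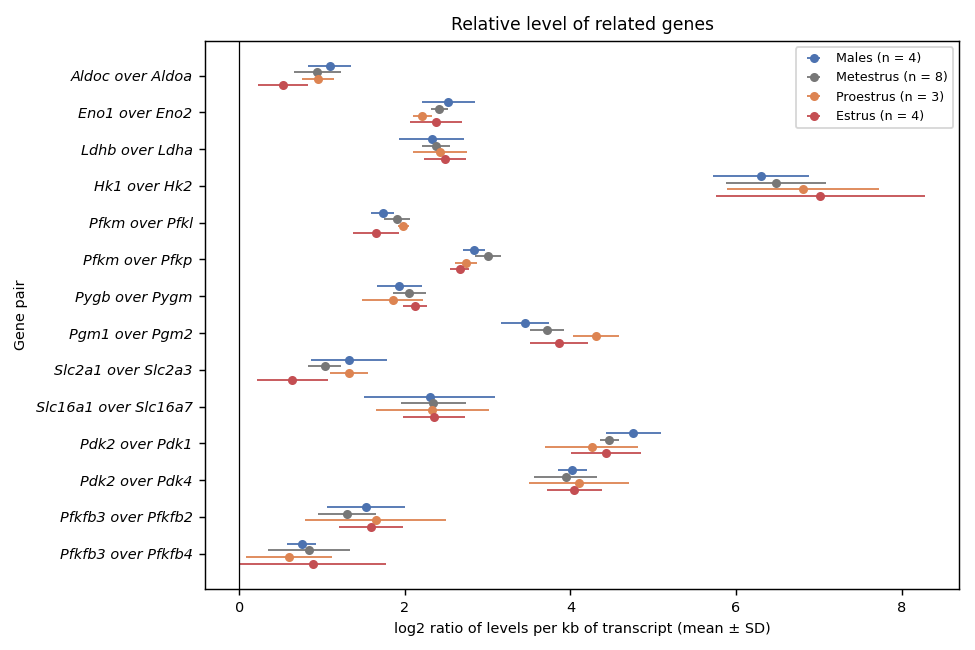
Each row is a pair of related genes and each point the mean log2 ratio of their levels per kb in males, metestrus, proestrus or estrus, with lines for the SD between libraries. Ppp1r3c over Ppp1r3b is not drawn. All means lie right of 0, with Hk1 over Hk2 the farthest of the pairs drawn, and Aldoc over Aldoa is lowest in estrus, at 0.53 ± 0.30 against 0.94 ± 0.28 in metestrus.

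Genes around the pathway were read as 7 further lists, and 0 of their genes passed the limma threshold in any of the 4 comparisons. The counts that follow are read against 13.1% of all genes at an unadjusted p under 0.05 in proestrus against metestrus, 11.3% in estrus against metestrus and 14.5% in estrus against proestrus. Of the other glycolysis and gluconeogenesis enzymes 16 of 25 were tested, and at an unadjusted p under 0.05 limma counted 0 higher and 2 lower in proestrus and 0 in estrus, each against metestrus. Of the other glycogen genes 20 of 22 were tested, with 1 higher and 0 lower in proestrus and 2 higher and 0 lower in estrus at that unadjusted level. Of the other sugar and monocarboxylate carriers 14 of 17 were tested, with 2 higher in proestrus and 1 higher in estrus. Pyruvate entry into mitochondria (11 genes) gave 1 higher and 1 lower in proestrus and 1 higher in estrus, and the pentose phosphate pathway (8 genes) gave 0 in both. For the citric acid cycle (17 genes), 16 of 17 had a fold change above 0 in estrus against metestrus, beside 43.5% of all genes. The median was 0.26, beside -0.07 for all genes, and 6 of 17 (35.3%) had an unadjusted p under 0.05, all of them higher, with 0 in proestrus against metestrus. The regulators of hypoxia response and glucose sensing (18 genes) gave 1 lower in proestrus and 3 lower in estrus. In estrus against proestrus, pyruvate entry gave 3 of 11 higher (27.3%), the other glycogen genes 2 higher and 1 lower, and the carriers and the hypoxia regulators 1 higher and 1 lower each. The other glycolysis enzymes and the citric acid cycle gave 1 higher each there, and the pentose phosphate pathway 0.

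Pdk3, Vegfa, Stbd1, Slc2a4 and Fh1 came closest to the threshold in these lists in the stage comparisons. Vegfa, the vessel growth factor that hypoxia induces, had values of 9.02 to 10.27 in metestrus, 9.06, 9.06 and 9.09 in proestrus, and 9.34, 8.23, 8.14 and 8.39 in estrus, where 3 of 4 libraries stood below every metestrus library. Its fold change in estrus against metestrus was -1.23 ± 0.27 (SE, adjusted p = 0.083 with limma, and 0.219 with the missing directions counted). Slc2a4 (GLUT4), the insulin-responsive glucose carrier, had values of 1.24, 2.55, 3.72 and 3.65 in males, 1.76 to 5.52 in metestrus, 7.51, 6.45 and 6.71 in proestrus and 6.73, 8.50, 6.12 and 6.55 in estrus. All estrus and proestrus libraries of Slc2a4 stood above all metestrus and male libraries, where 3.33% of all genes had no overlap in estrus against metestrus and 8.73% in proestrus against metestrus. Its fold change was 2.70 ± 0.87 in proestrus and 2.82 ± 0.81 in estrus, each against metestrus (SE, adjusted p = 0.153 and 0.188 with limma). Metestrus replicates 1 (1.76) and 5 (3.28) lay below the minimum of 3.32, so the size is uncertain. The metestrus libraries of batch 2 had Slc2a4 values of 1.76 and 5.27. In batch 3, Slc2a4 had 5.52 in metestrus, 6.71 in proestrus and 6.55 in estrus. Stbd1, which tethers glycogen to membranes, had values of 7.14, 5.16, 5.44 and 2.99 in estrus, against 2.60, 1.78 and 0.74 in proestrus. The groups did not overlap in that comparison, where this held for 9.06% of all genes, but Metestrus replicate 3 reached 5.82. All 3 proestrus libraries and Estrus replicate 4 lay below the minimum of 3.32, so no size is given for the difference (adjusted p = 0.104 with limma). Pdk3, the remaining kinase of pyruvate dehydrogenase, differed by 0.99 ± 0.27 in estrus against proestrus (SE, adjusted p = 0.0718 with limma). It had values of 8.34, 8.77 and 7.24 in proestrus and 8.96, 9.35, 9.335 and 9.00 in estrus. Proestrus replicate 3, of batch 3, alone carried the low end of Pdk3. Fh1, fumarate hydratase of the citric acid cycle, differed by 0.75 ± 0.21 in estrus against metestrus (SE, adjusted p = 0.165 with limma). In males against metestrus the smallest p was that of Eno1b, a near-identical copy of Eno1, with a fold change of 2.72 ± 0.71 (SE, adjusted p = 0.663 with limma), and its share of Eno1 reads is uncertain.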

How the data were processed

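The authors deposited log2 values of 21749 genes in 19 libraries, per the file headers. STAR, Salmon, edgeR and the build GRCm39 are named per the submitters' processing notes, with no versions or order. The sources used here state no pseudocount, scaling, strandedness or read depth, and intervals for counting error were therefore left out. The tests covered the 20644 genes (94.9%) that reached 3.32, the log2 of 10, in 3 or more libraries. A linear model with terms for group and batch was fitted to the 19 libraries with limma 3.58.1 (trend and robust prior) under R 4.3.3. Two-sided p-values were adjusted over the genes tested (Benjamini-Hochberg, threshold 0.05). The fit was tested on simulated data with independent noise, in which only genes of high level and low spread were changed. Those data held no shared movement of libraries and no missing directions, so the test does not cover low genes such as Ppp1r3b. The deposited values lack 4 directions of variation, and 98.6% of the first of the pair of batch directions lies among them, so an alternative adds 2 of the missing directions to the model (11 residual degrees of freedom in place of 13). Other alternatives changed the filter, the batch term, the libraries, the centring or the variance prior, or left out single libraries. Replicate numbers follow the order of deposition and serve as names. Figures and motif searches used Python 3.11.15, pandas 2.3.3 and matplotlib 3.10.9. All 36 genes are reported. Those shown library by library had the smallest p in the test across stages or in males against metestrus, or stood out once their values were seen. From the surrounding lists, the text takes genes among the 2 smallest p-values a list in each comparison. The members and lists were chosen with earlier results of these data known.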

Additional observations from a re-analysis of the deposited data

Results flagged for a closer look

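Single libraries lay far from the others of their group in 5 of 108 sets of a gene and a group of 4 or 8 libraries, where chance gives about 1 in 20. Ppp1r3b in Estrus replicate 1 was high, at 7.476, with the next library at 6.568. In Estrus replicate 4, Pgm1 was low at 11.23, with the next library at 12.13, and Pfkfb3 was low at 8.744, with the next at 9.335. That library is the only estrus library of batch 3 and had the lowest total. Pgm1 in Male replicate 1 was high, at 12.25, with the next library at 11.85. Pygb in Metestrus replicate 4 was low, at 12.21, with the next library at 12.81.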

How the results depend on the processing

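None of the alternatives turned round a fold change past the threshold, and Ppp1r3b was the only one of the 36 genes whose call changed. In estrus against metestrus its fold change of 4.50 lost the call with the stricter filter of 6 (adjusted p = 0.22, 0 genes called), within batches 2 and 3 alone (0.116) and with the missing directions counted (0.112), and kept it centred (0.0186), unfiltered (0.0281), without batch (0.000583) and without the prior (0.0103). Across the stages it lost the call with the stricter filter (0.09, 0 of 36) and the missing directions (0.0509, 0 of 36). In proestrus against metestrus it gained one without batch (2.73, adjusted p = 0.0186, 1 of 36). Leaving out single libraries gave 0 to 1 of the 36 in estrus against metestrus.

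Over all genes, the limma counts moved more. Proestrus against metestrus (204) gave 48 with the stricter filter, 1146 without batch, 1 within shared batches, 75 with the missing directions and 68 to 190 without single libraries. Estrus against metestrus (18, with 2337 at an unadjusted p under 0.05) gave 0, 899, 0 and 0 in the same order, 49 without the prior and 0 to 56 without single libraries. Estrus against proestrus (194) gave 310 when centred, 78, about 3.6e+02, 0 and 52 in the same order, and 66 to 430 without single libraries. Males against metestrus (5) gave 1 with the stricter filter, 10 without batch, 9 without the prior and 5 to 8 without single libraries. The test across stages (254) gave 62, 1825 without batch, 57 with the missing directions and 93 to 431 without single libraries. The cause was not tested.

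The titles of batch 4 give males and metestrus libraries shared numbers. Same-numbered libraries had correlations of -0.20 to 0.15 in their deviations, and the other pairs -0.28 to 0.37. The deviations were centred within each group, and the values lack 4 directions of variation. The correlations therefore cannot decide whether the numbers mark pairs. With the title numbers as a replicate block, 4 genes were called in males against metestrus, 0 of them among the 36. Read depth cannot be judged from these values.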
